A study of Rattus norvegicus with 34 samples.

Results

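*Il6* and its feedback inhibitor *Socs3* are 2 of the 44 specific genes that were measured in single retinae on TaqMan microfluidic cards of 48 wells. They were chosen by name as a ligand and a target of one pathway, with earlier results of these data known. Interleukin-6 is a cytokine that binds its receptor together with the signal-transducing chain gp130. The receptor complex activates Janus kinases (JAK), which phosphorylate the transcription factor STAT3, and *Socs3* is among the first genes that STAT3 induces. The SOCS3 protein in turn binds gp130 and the kinases and ends the signal, so that *Socs3* mRNA is commonly read as a sign of recent STAT3 activity. In the retina, Müller cells, the main glia, and microglia are known sources of interleukin-6, and ciliary neurotrophic factor (CNTF) also signals through gp130.

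Retinal RNA of 9-week-old rats was analyzed in 4 groups of single animals. Sprague Dawley (SD) rats were uninjected (n = 6). PKD rats, PKD2(HA-1/703-CMV-247), are male and homozygous for a transgene that expresses a truncated polycystin-2 under the CMV promoter, which is not restricted to a cell type, and they were uninjected as well (PKD, n = 6). PKD rats with clodronate-coated liposomes (PKD + Clodronate, n = 5) and PKD rats with control liposomes (PKD + Controlliposomes, n = 6) received 3 µl into the vitreous at 4 and 8 weeks of age, so that both share the transgene and the injection. PBS-injected PKD rats and clodronate-injected SD rats were not analysed here. A quantification cycle (Cq) is the PCR cycle at which a well crosses the threshold, and a lower Cq means more template. The Cq of each gene was subtracted from the average Cq of 4 reference genes (18S, *B2m*, *Mrpl19*, *Ywhaz*), which gives expression on a log2 scale at full amplification efficiency, and the average of the SD rats was set to 0. Whole retina was measured, so that fewer cells of a type and less RNA per cell cannot be told apart. No photoreceptor, neuron or endothelial marker is among the assays, and the tissue label could be checked with glial genes alone. *Gfap* of macroglia and the microglial genes *Aif1*, *Itgam*, *Cd74*, *Trem2*, and *Tyrobp* had a Cq in all 23 rats.

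The sequences before 2 genes are shown because they hold motifs of transcription factors known to act on the ligand and on targets of this pathway. *Il6* (rat gene 24498) lies on chromosome 4 at 5889999 to 5894575 and *Socs3* (gene 89829) on chromosome 10 at 103692579 to 103695975, both on the minus strand of the GRCr8 build. The 250 bases before the RefSeq start of *Il6*, chr4:5894576-5894825, minus strand, are printed with a cyclic AMP response element (TGACGTCA, 162 bases before the start) and an NF-kB motif (GGGA and TTTCC with any base between them, 68 bases before the start) in capitals. The 250 bases before *Serpina3n*, an acute-phase serine protease inhibitor, chr6:129088142-129088391, plus strand, are printed with a STAT motif (TTCNNNGAA) in capitals.
*Il6*: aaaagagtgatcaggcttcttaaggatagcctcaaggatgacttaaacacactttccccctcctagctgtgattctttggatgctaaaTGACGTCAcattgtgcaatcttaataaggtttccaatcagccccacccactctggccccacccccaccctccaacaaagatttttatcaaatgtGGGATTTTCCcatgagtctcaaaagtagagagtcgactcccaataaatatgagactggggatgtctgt
*Serpina3n*: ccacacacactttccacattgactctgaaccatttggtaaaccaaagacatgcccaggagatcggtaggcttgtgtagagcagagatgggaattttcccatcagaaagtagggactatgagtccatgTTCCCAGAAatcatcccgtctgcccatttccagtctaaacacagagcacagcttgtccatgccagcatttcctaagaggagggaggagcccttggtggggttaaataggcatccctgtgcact
Motifs were searched on both strands in the 250 bases before the start of every RefSeq gene with a promoter window, and the 3 motifs do not overlap each other in the windows shown. The STAT motif was present in 7.67% of 33469 such windows, the NF-kB motif in 0.314%, and the cyclic AMP response element in 1.59%. Of 15 genes listed for the pathway, 14 had a window, and 2 of these held the STAT motif, which were *Serpina3n* (TTCCCAGAA, 123 bases before the start) and *Icam1* (TTCCGGGAA, 107 bases before the start). No STAT motif was found in the window of *Il6* or in that of *Socs3*. The start used for the window of *Socs3* lies 1207 bases inside the outer end of the gene, so it does not cover the sequence before that end. That of *Icam1* lies 157 bases inside, so that its match lies within the gene interval. A match is a description of the letters and was not tested as a binding site.

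*Socs3* was higher in PKD retinae than in SD retinae by 4.22 log2 units, which is 18.7-fold. In the SD rats, *Socs3* was at −1.29 in the lowest rat and at 1.83 in the highest, with a median of −0.33. In the PKD rats, the lowest value was 3.97, the median 4.14, and the highest 4.56. Every PKD rat was therefore above every SD rat. In cycles, *Socs3* was read at a mean Cq of 26.3 ± 1.04 (SD, n = 6) in SD and 22.3 ± 0.119 (n = 6) in PKD rats, whereas the mean Cq of the reference genes was 16.3 ± 0.342 and 16.5 ± 0.221. The increase had a standard error of 0.340 and a 95% interval of 3.52 to 4.92 in limma (adjusted p = 1.38e-10). By exact permutation, p was 0.00216, which is the lowest value possible with 6 rats per group. Here 36.6% of the 41 tested genes had an adjusted p under 0.05 (34.1% higher, 2.44% lower), and non-overlapping groups were found for 14.6% of them. By size, the change of *Socs3* was the second of the 41.

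*Il6* was read late on the cards, with Cq values from 31.9 to 35.2 in SD rats, and it differed less between the strains. Its mean Cq over all rats was the fourth latest of the 41 tested genes, and 1 SD rat (rat 100) had an *Il6* Cq of 35.16, the latest value on the cards. Expression of *Il6* was at −1.78 in the lowest and 1.06 in the highest SD rat, with a median of 0.42. In PKD rats it was at 0.53 in the lowest and 1.52 in the highest, with a median of 0.70. The groups overlapped, since 3 SD rats lay within the range of the PKD rats. The difference between the means was 0.91 log2 units (1.88-fold, standard error 0.378, 95% interval 0.13 to 1.69), with an adjusted p of 0.0623 in limma, which misses the threshold of 0.05. The exact permutation test gave p = 0.0909 before adjustment, and 6 of 6 PKD rats were above the SD mean. The call depended on the reference genes and on single rats. Without *B2m* among the reference genes, *Il6* passed with 1.08 (adjusted p = 0.0281), and it also passed without SD rat 93, 97 or 99 (limma adjusted p of 0.0377, 0.0363, and 0.0183), whereas without rat 100 the difference was 0.55 (adjusted p = 0.223). With the specific genes as normalizer it was 0.08 (adjusted p = 0.860). This normalizer is the mean of 40 specific genes and includes *Il6*, *Socs3*, and other genes that were higher in PKD rats. It lowered the median of all genes by 0.82 log2 units in this comparison, so that smaller increases turn negative under it. *B2m*, the light chain of class I histocompatibility molecules, was itself read at a mean Cq of 17.9 in SD, 17.5 in PKD, and 17.2 in both liposome groups. The other reference genes moved the opposite way from SD to PKD rats. Their mean Cq went from 17.526 to 17.982 for *Ywhaz*, from 6.721 to 7.101 for 18S, and from 23.129 to 23.304 for *Mrpl19*. Each was also later in both liposome groups than in SD rats. These shifts were not tested, so *B2m* is not shown to be the least stable reference gene.

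**Figure D1:**
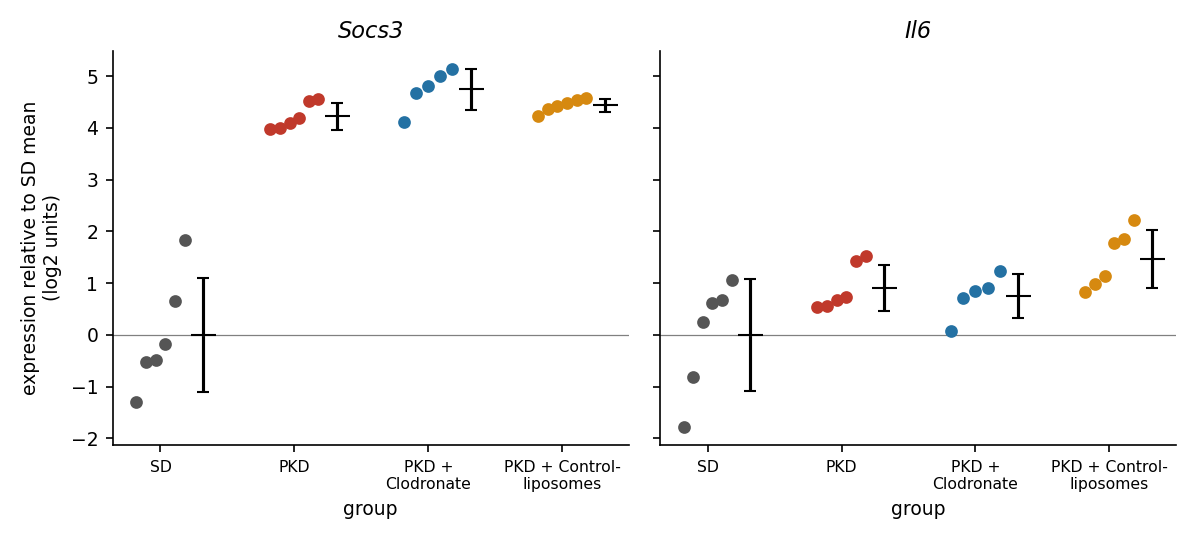
Expression of *Socs3* (left) and *Il6* (right) in each rat by group, on the log2 scale with the SD average at 0, where points are rats in order of their value and bars are mean ± SD. All PKD, PKD + Clodronate, and PKD + Controlliposomes rats are above the highest SD rat for *Socs3*, at 3.97 or more against 1.83, whereas the groups overlap for *Il6*.

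In PKD rats with clodronate-coated liposomes, *Socs3* was far above the level of SD rats. These rats differed from the SD rats in the transgene and in the liposome injection, which cannot be told apart in this comparison. The 5 PKD + Clodronate rats had *Socs3* values of 4.12, 4.68, 4.81, 5.01, and 5.13. All of them were above the highest SD rat, and 4 of 5 were above the highest uninjected PKD rat. Compared to SD rats, the difference was 4.75 log2 units (26.9-fold, standard error 0.356, 95% interval 4.02 to 5.49, limma adjusted p = 2.95e-11), the largest of the 41 tested genes. Here 51.2% of the genes passed (46.3% higher, 4.88% lower), and 22.0% had groups without overlap. *Il6* values in the same rats were 0.71, 0.07, 0.85, 0.90, and 1.23 for the rats with *Socs3* at 4.12, 4.68, 5.13, 4.81, and 5.01. The rat with the lowest *Il6* was thus not the one with the lowest *Socs3*. Compared to SD rats, *Il6* differed by 0.75 (standard error 0.397, 95% interval −0.06 to 1.57, limma adjusted p = 0.123), with 5 of 5 rats above the SD mean. Without *B2m* this difference was 1.04 (adjusted p = 0.0338), without SD rat 99 it was 0.97 (adjusted p = 0.0425), without rat 100 it was 0.40 (adjusted p = 0.324), and with the specific genes as normalizer it changed sign to −0.13 (adjusted p = 0.783).

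In PKD rats with control liposomes, both genes were higher than in SD rats. These rats differed from the SD rats in the transgene and in the liposome injection, which cannot be told apart in this comparison. *Socs3* was at 4.23 in the lowest and 4.58 in the highest PKD + Controlliposomes rat, with a median of 4.45, the narrowest range of the 4 groups. The difference from SD rats was 4.44 log2 units (21.7-fold, standard error 0.340, 95% interval 3.74 to 5.14, limma adjusted p = 4.66e-11), without overlap between the groups. *Il6* was at 0.83 in the lowest and 2.22 in the highest rat, with a median of 1.46. It was 1.47 log2 units above SD (2.76-fold, standard error 0.378, 95% interval 0.69 to 2.25, limma adjusted p = 0.00165), with 6 of 6 rats above the SD mean, although the lowest of them lay below the highest SD rat (exact permutation test, p = 0.00649). Of the tested genes, 63.4% passed (56.1% higher, 7.32% lower), and 29.3% had groups without overlap. The *Il6* change ranked 11th in size of 41, and it passed without each single rat in turn, but not with the specific genes as normalizer (0.42, adjusted p = 0.280), which lowered the median of all genes by 1.05 log2 units in this comparison.

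Of the markers of microglia and macrophages, 3 of 5 were also higher in control liposome-treated rats than in SD rats, where 56.1% of all tested genes were higher. These were *Itgam* (1.50, adjusted p = 1.52e-06), *Tyrobp* (1.27, adjusted p = 0.000147), and *Aif1* (0.77, adjusted p = 0.00656), by limma. *Cd74*, which had the lowest mean Cq of the 5, differed by 0.26 and *Trem2* by 0.40, and neither passed. The summed level of the 5 markers, relative to the SD mean on the log2 scale, was 0.12 ± 0.212 (SD, n = 6) in PKD, 0.49 ± 0.536 (n = 5) in PKD + Clodronate, and 0.56 ± 0.441 (n = 6) in PKD + Controlliposomes rats, with 0.838 as the SD of the SD rats. *Cd74* weighs most in this sum. The mean over the 5 markers, in which each counts equally, was 0.27 ± 0.174 in PKD, 0.26 ± 0.356 in PKD + Clodronate, and 0.84 ± 0.239 in PKD + Controlliposomes rats, with 0.589 as the SD of the SD rats. Between uninjected PKD and SD rats, *Itgam* (0.83, adjusted p = 0.00275) and *Tyrobp* (0.85, adjusted p = 0.00927) passed, which is 2 of 5 against 34.1% of all genes higher. The same markers passed between PKD + Clodronate and SD rats (0.70, adjusted p = 0.0112, and 0.94, adjusted p = 0.00468), against 46.3% of all genes, but *Itgam* did not pass there in the exact permutation test (adjusted p = 0.0514) or when limma was fitted to these groups alone (adjusted p = 0.0681). Between the liposome groups, *Aif1* (−0.99, adjusted p = 0.0194) and *Itgam* (−0.81, adjusted p = 0.0278) were lower with clodronate, the only 2 of the 41 genes (4.88%) that passed there. Without *B2m* among the reference genes neither passed, without *Mrpl19* *Itgam* did not, and without single rats *Aif1* did not pass in 4 and *Itgam* in 7 of 23 fits. The counts against SD rats also rest on the reference genes. With the specific genes as normalizer, 0 of the 5 markers were higher and 3 lower in PKD, 0 higher and 2 lower in PKD + Clodronate, and 1 higher (*Itgam*, 0.46) and 1 lower (*Cd74*, −0.79) in PKD + Controlliposomes rats, where *Aif1* was at −0.28 (adjusted p = 0.246). Under this normalizer 23 of the 41 tested genes passed between PKD and SD rats, in either direction. The shares of all genes higher or lower were not counted under it, so these marker counts have no background by direction. All 5 markers had a Cq in every rat, and their part in the *Il6* and *Socs3* values was not tested.

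Among the PKD groups, neither gene passed the threshold in limma. The order of the *Socs3* means was SD, PKD (4.22 ± 0.257), PKD + Controlliposomes (4.44 ± 0.129), and PKD + Clodronate (4.75 ± 0.395), and neighbours above SD did not differ beyond their spread. For *Il6* the order was SD, PKD + Clodronate (0.75 ± 0.425), PKD (0.91 ± 0.445), and PKD + Controlliposomes (1.47 ± 0.559), in which no neighbouring groups differed beyond their spread. The liposome groups therefore stood in opposite order for the 2 genes. Between PKD + Clodronate and PKD rats, *Socs3* differed by 0.53 (95% interval −0.20 to 1.26, limma adjusted p = 0.472) and *Il6* by −0.15 (95% interval −0.97 to 0.66, adjusted p = 0.801). The exact permutation test gave p = 0.0281 (adjusted p = 0.192) for *Socs3* and p = 0.582 (adjusted p = 0.675) for *Il6*. No tested gene passed in this comparison (0%), while 5 had an unadjusted p under 0.05 in limma and 0 passed after adjustment of the exact permutation test. Without the clodronate-treated rat with the lowest *Il6* (0.07), the difference in *Il6* was 0.017. The groups did not overlap for 2.44% of the genes. Between PKD + Controlliposomes and PKD rats, *Socs3* differed by 0.22 (95% interval −0.48 to 0.91, limma adjusted p = 0.779) and *Il6* by 0.56 (95% interval −0.22 to 1.34, adjusted p = 0.460), and 2.44% of the genes passed, while 7.32% had groups without overlap. Between PKD + Clodronate and PKD + Controlliposomes rats, *Socs3* differed by 0.31 (95% interval −0.42 to 1.05, limma adjusted p = 0.600) and *Il6* by −0.71 (95% interval −1.53 to 0.11, adjusted p = 0.435), and 4.88% of the genes passed, all lower with clodronate. These intervals leave room for changes of up to 2.40-fold in *Socs3* with clodronate and of up to 2.53-fold in *Il6* with control liposomes against uninjected PKD rats. The limma fit pools the spread of all 4 groups. The wider spread of the SD rats (SD of 1.10 for *Socs3* and 1.08 for *Il6*) therefore enters these intervals and p-values.

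**Figure D2:**
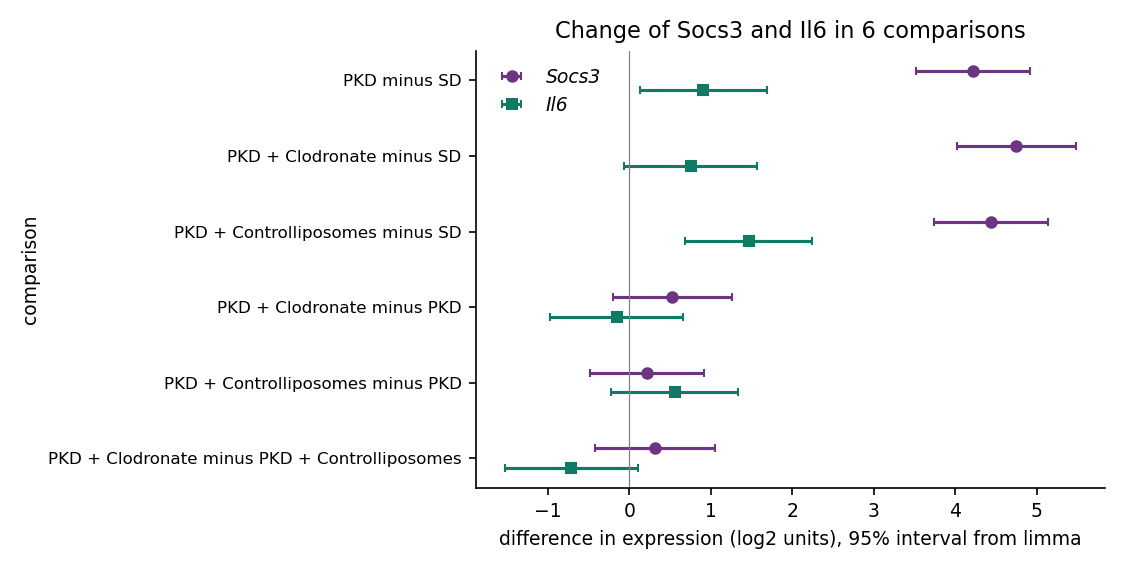
Difference in expression of *Socs3* (circles) and *Il6* (squares) between groups, with log2 units on the x axis, the 6 comparisons on the y axis, and 95% intervals from limma as bars. *Socs3* lies at 4.22 to 4.75 in the comparisons with SD rats and *Il6* at 0.75 to 1.47, and all intervals among PKD groups include 0.

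The ligand and the target were compared within each rat by subtracting the Cq of *Socs3* from that of *Il6*. The reference genes cancel in this difference, so that it does not rest on the normalization, and a change of 1 cycle is a 2-fold change of *Socs3* relative to *Il6*. The level itself is not interpreted, since it also depends on both assays. The difference was 6.78 ± 1.22 cycles (SD, n = 6) in SD rats, with 4.81 as the lowest and 8.03 as the highest value. It was 10.1 ± 0.407 cycles (n = 6) in PKD rats, from 9.46 to 10.6, and no PKD rat overlapped with an SD rat. The change between SD and PKD rats was 3.31 cycles (9.95-fold, 95% interval 2.42 to 4.21), with p = 0.00216 in the exact permutation test (two-sided, adjusted p = 0.00433 over the 6 comparisons). *Socs3* thus rose more than *Il6* in PKD rats, by a margin larger than the spread between rats. The same held against SD rats for PKD + Clodronate (3.997 cycles, 16.0-fold) and for PKD + Controlliposomes rats (2.97 cycles, 7.84-fold), each with an adjusted p of 0.00433 in the exact permutation test. Those 3 comparisons share the SD rats.

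Within the PKD groups, *Socs3* relative to *Il6* was highest with clodronate. The values of the 5 PKD + Clodronate rats were 10.2, 10.6, 10.7, 11.1, and 11.4 cycles, and those of the PKD + Controlliposomes rats lay between 8.94 and 10.2 with a median of 9.83. The lowest clodronate-treated rat was below the highest control liposome-treated rat. The means differed by 1.03 cycles (2.04-fold, exact permutation test, p = 0.0130, adjusted p = 0.0195). Between PKD + Clodronate and PKD rats the means differed by 0.68 cycles (1.60-fold, exact permutation test, p = 0.0346, adjusted p = 0.0416). Both missed the threshold in an ordinary linear model of the 4 groups, in which the wider spread of the SD rats enters, with adjusted p-values of 0.0517 and 0.176. When single rats were left out, the difference between the liposome groups stayed between 0.86 and 1.17, and without each of the 4 clodronate-treated rats above 10.2 its adjusted p was 0.05 and no longer below the threshold. The difference from uninjected PKD rats stayed between 0.53 and 0.83 and did not pass without 8 of the 11 rats, with an adjusted p of up to 0.0971. It passed only without the lowest clodronate-treated rat or without either of the 2 highest PKD rats. Between PKD + Controlliposomes and PKD rats the means differed by −0.34 cycles (exact permutation test, p = 0.251).

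**Figure D3:**
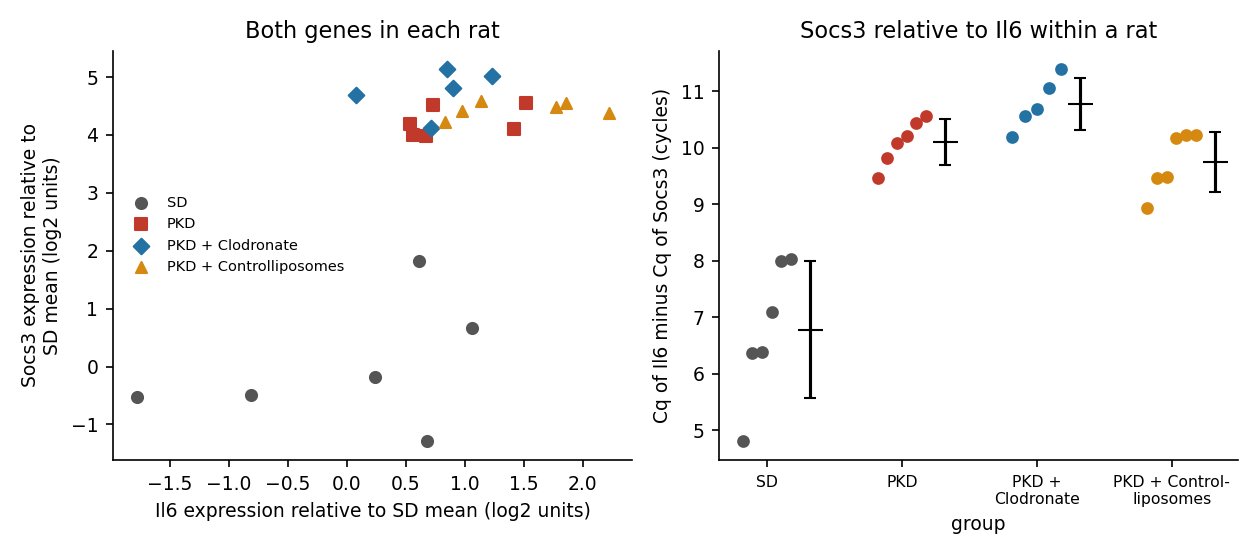
Left, *Il6* (x axis) against *Socs3* (y axis) in each rat, both in log2 units relative to the SD mean; right, the Cq of *Il6* minus that of *Socs3* in cycles for each rat by group, with mean ± SD as bars. The SD rats are apart from the PKD groups on the *Socs3* axis but not on the *Il6* axis, and their highest value on the right is 8.03 against 8.94 in the lowest rat of the PKD groups.

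No relation between *Il6* and *Socs3* inside a group passed its test. Since SD and PKD rats form separate clusters of *Socs3*, no relation was tested over all rats. The PKD + Clodronate group (n = 5) was not tested on its own, since 6 rats were set as the minimum for a test. Pearson's r was 0.378 in SD (Spearman's rho 0.314), 0.428 in PKD (rho 0.486), and 0.289 in PKD + Controlliposomes rats (rho 0.257), with exact permutation p-values for r of 0.492, 0.281, and 0.578 in 6 rats each. Over the 17 rats of the 3 PKD groups, with group means subtracted, r was 0.320 (permutation test, p = 0.212) and rho was 0.355 (permutation test, p = 0.162). Without the 2 rats farthest from the median of *Il6*, r was 0.173, 0.546, and 0.271 in the 4 rats left of each of the 3 groups and 0.285 over the 15 rats left of the 17. The lowest adjusted p for r over the 4 relations was 0.561. Both values share the reference genes of the rat. With Cq values as read, r was lower within PKD rats (−0.058) and higher within SD rats (0.428), within PKD + Controlliposomes rats (0.559), and over the 17 rats (0.405, permutation test, p = 0.106, adjusted p = 0.424). Among the SD rats, rat 93 had the lowest *Socs3* (−1.29) and the second highest *Il6* (0.68), and rat 97 had the highest *Socs3* (1.83) with *Il6* at 0.61. Rat 97 was the highest SD rat for 10 of the 15 pathway genes described below, *Socs3* included, and for 6 of the 8 STAT3-linked and acute-phase genes among them, with *Gfap* at 1.80, *Serpina3n* at 4.04, *Lcn2* at 1.38, *Timp1* at 1.98, *Chi3l1* at 1.30, and *C3* at 1.32. Outside the pathway list, rat 97 was also the highest SD rat for the markers *Cd74* (1.19), *Trem2* (0.76), and *Itgam* (0.67), but not for *Aif1* or *Tyrobp*. Its rank was not counted over all 41 tested genes, so the 10 of 15 is not shown to be particular to the pathway. Without this rat, *Socs3* was 4.59 higher in PKD than in SD rats (limma adjusted p = 1.36e-13).

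Both genes, like most on the cards, varied less in PKD than in SD rats. The SD of *Socs3* expression was 1.10 in SD rats and 0.129 to 0.395 in the PKD groups, and that of *Il6* was 1.08 in SD rats and 0.425 to 0.559 in the PKD groups. Of the 41 tested genes, 35 had a smaller SD in PKD, 32 in PKD + Clodronate, and 34 in PKD + Controlliposomes than in SD rats. This difference in spread was not tested. The spread within groups, pooled over the 4 groups, was 0.693 for *Il6* and 0.609 for *Socs3*, the 10th and 14th of the 41 genes.

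Other genes of the pathway were taken from a list of cytokines, STAT3-linked and acute-phase genes, and cytokines known to induce *Il6*. The list was chosen with earlier results of these data known, so its counts are descriptions and no independent test. Of the 13 listed genes other than *Il6* and *Socs3*, 7 rose and 0 fell in PKD compared to SD rats, with a median difference of 0.72 against 0.44 over all 41 tested genes, of which 34.1% rose. In PKD + Clodronate rats 9 of the 13 were higher and 0 lower than in SD rats (median 1.13 against 0.63, 46.3% of all genes higher), and in PKD + Controlliposomes rats 9 were higher and 1 was lower (median 1.08 against 0.75, 56.1% higher and 7.32% lower). When the specific genes served as normalizer, PKD rats had 4 of the 13 genes above and 3 below SD rats, and each liposome group had 4 above and 4 below. In that setting 23 of the 41 tested genes passed between PKD and SD rats, in either direction. The shares of all genes higher or lower were not counted there, so these counts have no background by direction. The counts thus depend on the normalizer, and the median of all genes moved by −0.82, −0.88, and −1.05 log2 units under it.

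Among the cytokines, *Cntf*, which signals through gp130 as interleukin-6 does, was higher by 0.71 in PKD (adjusted p = 0.0129), 0.71 in PKD + Clodronate (adjusted p = 0.0140), and 0.78 in PKD + Controlliposomes rats (adjusted p = 0.00436) than in SD rats in limma. The *Cntf* call in PKD + Clodronate rats was lost when limma was fitted to the compared groups alone. With the specific genes as normalizer the sign of *Cntf* turned in all 3 comparisons, to −0.12, −0.18, and −0.27, and none passed. This normalizer holds *Cntf* and the raised genes. Any increase smaller than its shift (0.82, 0.88, and 1.05 log2 units) turns negative under it. *Il10*, an anti-inflammatory cytokine that acts through STAT3 with its own receptor, differed by 0.37, −0.60, and −0.05 in the same comparisons, and none passed. Of the cytokines known to induce *Il6*, *Il1b* was at 0.56 in PKD rats (limma adjusted p = 0.141) and rose in PKD + Clodronate (0.83, adjusted p = 0.0245) and PKD + Controlliposomes rats (0.75, adjusted p = 0.0283). The latter did not pass in the exact permutation test (adjusted p = 0.0919), without *Mrpl19* or *Ywhaz* among the reference genes, or in 4 of 23 fits without single rats, and the former did not in 3 of 23. In limma fits of the compared groups alone neither passed (adjusted p of 0.0522 and 0.0775), and with the specific genes as normalizer both turned negative, to −0.05 and −0.30. *Tnf* was at 0.11, −0.31, and 0.21 and *Il18* at 0.05, −0.41, and 0.01, and neither passed in any of the 3 comparisons.

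Of the 8 STAT3-linked and acute-phase genes, 6 rose in PKD rats and 2 did not pass, beside 34.1% of all tested genes that were higher. *Gfap*, the intermediate filament of reactive macroglia, was 2.62 log2 units higher (standard error 0.300, adjusted p = 4.61e-08), and all PKD rats were above the SD rats. *Serpina3n*, whose upstream sequence with the STAT motif is printed above, was 4.15 higher (standard error 0.797, adjusted p = 0.000128), with the widest spread within groups of all 41 genes. SD rat 97, at 4.04, lay inside the range of the PKD rats (2.87 to 6.03), with the other SD rats at 1.14 or less, and without it the difference was 4.96 (adjusted p = 6.21e-07). *Lcn2*, an iron-carrier binding protein of the acute phase, rose by 2.09, the chitinase-like *Chi3l1* by 1.71, the complement component *C3* by 1.13, and the adhesion molecule *Icam1* by 1.06. *Timp1*, an inhibitor of matrix metalloproteinases, differed by 0.72 (adjusted p = 0.173) in PKD rats, or by 1.11 without SD rat 97 (adjusted p = 0.00771), and rose in PKD + Clodronate (1.13, adjusted p = 0.0271) and PKD + Controlliposomes rats (1.53, adjusted p = 0.00194) by limma. The former did not pass in the exact permutation test (adjusted p = 0.135) or without 18S among the reference genes, and neither passed with the specific genes as normalizer (0.25 and 0.48). *Vegfa*, the vascular growth factor, differed by −0.18 in PKD rats, by −0.41 in PKD + Clodronate rats, and fell by 0.66 in PKD + Controlliposomes rats (adjusted p = 0.00921), a call that was lost without *B2m* among the reference genes. With the specific genes as normalizer, *Gfap* (1.80), *Serpina3n* (3.33), *Lcn2* (1.26), and *Chi3l1* (0.88) passed as higher in PKD rats and *Icam1* (0.23) and *C3* (0.31) did not. Among the PKD groups, 1 of the 13 genes passed in 1 of the 3 comparisons, beside 2.44%, 0%, and 4.88% of all 41 genes. This was *C3*, which was 1.16 higher with control liposomes than without injection (limma adjusted p = 0.0490), and which did not pass without *B2m*, *Mrpl19* or *Ywhaz* among the reference genes, nor in 16 of 23 fits without single rats.

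**Figure D4:**
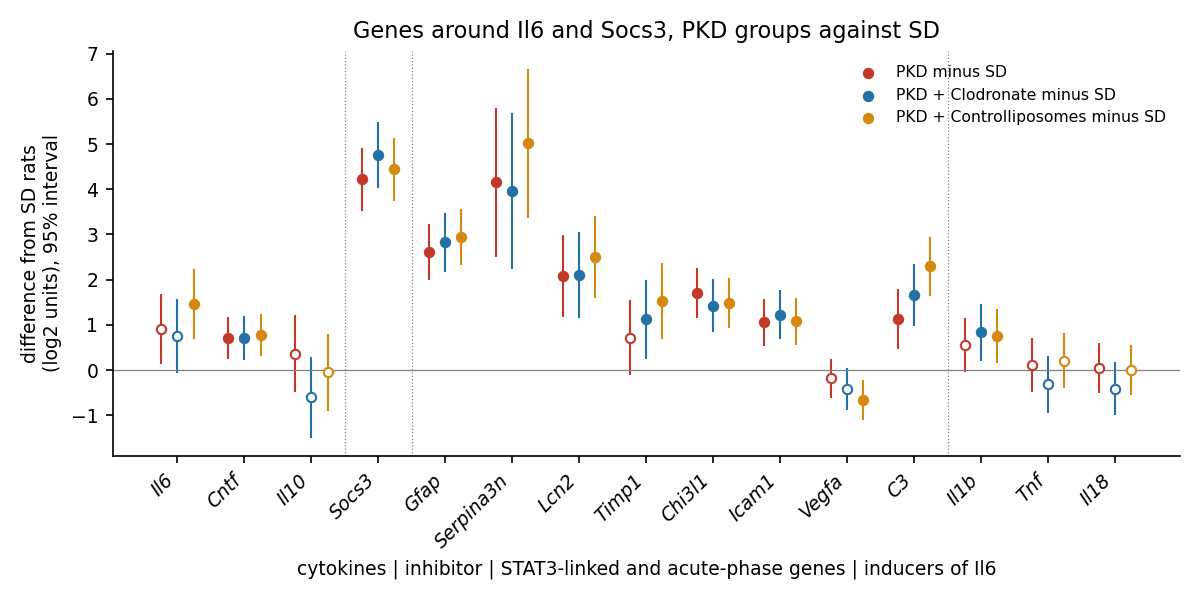
Difference in expression from SD rats (y axis, log2 units, with 95% intervals from limma) for the 15 listed genes around *Il6* and *Socs3* (x axis) in PKD, PKD + Clodronate, and PKD + Controlliposomes rats, where filled points passed an adjusted p of 0.05 and open points did not. *Socs3* and *Serpina3n* lie highest, at 3.95 to 5.01, and *Il6* is filled in PKD + Controlliposomes rats only, at 1.47.

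The genes whose expression ran most like that of *Socs3* over the 23 rats were *Gfap* (Pearson's r = 0.979), the endothelin *Edn2* (0.963), the growth factor *Fgf2* (0.944), the TWEAK receptor *Tnfrsf12a* (0.891), and *Icam1* (0.875). *Il6* was the 18th of the 40 other genes in likeness to *Socs3*. The genes most like *Il6* were *Itgam* (0.734), *C3* (0.722), *Gfap* (0.662), *Edn2* (0.646), and *Tyrobp* (0.639), and *Socs3* was 7th. *Gfap* and *Edn2* are in both sets. These values are descriptions over rats of 4 groups, in which the gap between SD and PKD rats and the shared reference genes take part.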

How the data were processed

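Gene expression was measured in total retinal RNA of single rats by reverse transcription, 14 cycles of pre-amplification, and TaqMan microfluidic cards with 48 wells, 1 per gene. The authors deposited Cq values, a unit other than counts or intensities, as read by the thermocycler software before subtraction of reference genes. A second deposited table with the authors' fold changes between groups was not used. The labels give no animal numbers. Groups of 23 columns were taken from the sample list of the study's supplement, and 11 columns named in neither were not used. Wells were named by matching the 23 Cq values to the gene symbols of the supplement within 0.0001 cycles, which held for all 48 wells, and all 44 specific genes were found in the RefSeq table for GRCr8. Of 1104 wells, 57 had no Cq and were left out. Depth in copies is unknown and each well was run once, so that precision rests on 5 or 6 rats per group. No source says that samples share a litter or day. No 2 rats had identical values.

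Specific genes with at least 3 Cq values in each group (41) were fitted with limma 3.58.1 in R 4.3.3 over the 4 groups, after the one-way analysis with Benjamini–Hochberg correction of the study's methods, with two-sided p-values adjusted over the 41 genes. Exact permutation tests were two-sided, by the absolute difference in means, and correlations over 17 rats used 100000 resamples (SciPy 1.17.1). The procedure was tested on simulated data. Named genes were *Il6*, *Socs3*, the reference genes, the pathway and marker lists, and the 5 genes most correlated with each member. The members and lists were chosen with earlier results of these data known. Alternatives were other reference genes, other treatments of late or empty wells, other fits and tests, and leaving out each rat. Another was normalization to the mean of 40 specific genes detected in all rats, *Il6* and *Socs3* included. Plots were drawn with matplotlib 3.10.9.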

Additional observations from a re-analysis of the deposited data

Results flagged for a closer look

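Outlying rats were searched for in *Il6*, *Socs3*, and their difference in Cq, over 12 groups of values. The search found 0, where chance gives about 0.6. Rat 97, with the highest *Socs3* of the SD rats (1.83), and rat 100, with the lowest *Il6* (−1.78), were therefore not set apart by this search. The search did not cover the other pathway genes in which rat 97 was the highest SD rat (10 of 15 with *Socs3*). It also did not cover the markers *Cd74*, *Itgam*, and *Trem2*, in which rat 97 was the highest SD rat as well.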

How the results depend on the processing

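No paired analysis was possible because the columns carry no replicate numbers, so the block was not run. *Socs3* against SD rats passed in all 12 alternatives (3.40 to 4.39 in PKD, 3.87 to 5.04 in PKD + Clodronate, 3.39 to 4.70 in PKD + Controlliposomes) and without each rat (3.96 to 4.59, 4.49 to 5.12, and 4.18 to 4.80). *Il6* against SD rats was more sensitive. In PKD rats it was 0.08 to 1.08 over the alternatives and 0.55 to 1.12 without single rats, passing without *B2m* (1.08). In PKD + Clodronate rats it was 0.40 to 0.97 without single rats, 1.04 without *B2m*, and −0.13 with the specific genes as normalizer. In PKD + Controlliposomes rats it was 1.11 to 1.68 without single rats and 0.42 with the specific genes. Between liposome and uninjected PKD rats, *Il6* was −0.27 to 0.017 with clodronate without single rats, and *Socs3* was −0.0094 with control liposomes under the specific genes as normalizer. The within-rat difference of 0.68 (PKD + Clodronate against PKD) and that of 1.03 (against PKD + Controlliposomes) missed the threshold in the ordinary linear model, and were 0.53 to 0.83 and 0.86 to 1.17 without single rats. With Cq values as read, the correlation was −0.058 within PKD rats, 0.428 within SD, 0.559 within PKD + Controlliposomes, and 0.405 over the 17 PKD rats.

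The number of genes past the threshold between PKD and SD rats was 15, or 23 with the specific genes as normalizer. Between PKD + Clodronate and PKD rats it was 0, with 2 under that normalizer and 1 with empty wells at 40. Between PKD + Controlliposomes and PKD rats it was 1. It was 0 without *B2m*, *Mrpl19* or *Ywhaz*, 3 without 18S or with empty wells at 40, 5 with the specific genes as normalizer or in a fit of the compared groups, 2 in the ordinary linear model, 4 with the exact permutation test, and 0 to 2 without single rats. Between PKD + Clodronate and PKD + Controlliposomes rats it was 2. It was 0 without *B2m*, 1 without *Mrpl19*, 0 to 3 over all 12 alternatives, and 0 to 3 without single rats. The causes were not tested.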
